A study of Homo sapiens with 2 samples.

Results

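The genes described here are 8 developmental regulators of the EYA-SIX-DACH network: EYA1, EYA2, EYA3, EYA4, SIX2, SIX4, SIX5 and DACH1. A non-control array probe belonged to the group when its RefSeq accession carried one of these symbols, and 9 of the 41000 probes did, which covered 7 of the 8 genes (of 17240 named genes on the array). No probe was matched to EYA2. The group was chosen by values of these arrays, because 1 of the EYA4 probes rose strongly, so that rise and the difference between the EYA4 probes are given as descriptions. SKOV3 is a human ovarian adenocarcinoma cell line. The cl-sh3 clone is a single puromycin-selected SKOV3 clone that stably carries a lentiviral pLKO.1-puro short hairpin against RUNX2, a runt-domain transcription factor known for bone formation. The control is a mock-transfected SKOV3 clone, which carries a scramble sequence in the same vector and went through the same selection. RNA of both clones was hybridized together on a 2-colour Agilent whole human genome array, with the control in Cy3 and cl-sh3 in Cy5 in hybridization 1 and with the dyes reversed in hybridization 2. Since the hybridizations share 1 RNA from each clone, they are 1 replicate, and the difference between them shows technical error, no p-value is given. Knockdown of RUNX2 and differences between individual clones cannot be told apart.

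SIX-family proteins are homeodomain transcription factors that bind DNA. EYA proteins bind SIX-family proteins as co-activators, also carry phosphatase activity, and do not bind DNA themselves, while DACH proteins act mainly as co-repressors in the same network. Together with PAX factors they are known for eye, ear, kidney and muscle development, and several members are studied in cancer.

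EYA4 and SIX4 were the genes of the group with more than 1 probe, and in both the probes differed. The 250 bases before the RefSeq start of each gene are shown because these are the genes whose transcripts the results turn on. They are on chromosome 6 (chr6:133241107-133241356, plus strand) and chromosome 14 (chr14:60724352-60724601, minus strand) of GRCh38.p14, written 5′ to 3′ with each CpG dinucleotide in capitals. The last capital C of EYA4 belongs to a CpG that runs past the end of the stretch and is not counted below.
EYA4: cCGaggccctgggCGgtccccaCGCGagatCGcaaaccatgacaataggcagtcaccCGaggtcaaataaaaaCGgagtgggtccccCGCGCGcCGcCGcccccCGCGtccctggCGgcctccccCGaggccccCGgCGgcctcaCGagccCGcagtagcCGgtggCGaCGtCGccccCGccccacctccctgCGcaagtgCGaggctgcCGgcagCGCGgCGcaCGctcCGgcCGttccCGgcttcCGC
SIX4: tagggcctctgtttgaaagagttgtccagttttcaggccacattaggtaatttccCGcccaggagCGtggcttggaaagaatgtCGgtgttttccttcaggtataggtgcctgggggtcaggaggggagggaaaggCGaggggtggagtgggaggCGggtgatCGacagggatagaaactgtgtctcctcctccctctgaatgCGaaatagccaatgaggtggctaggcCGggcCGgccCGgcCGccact
The EYA4 stretch held 36 CpG dinucleotides and the SIX4 stretch held 11, against a median of 11 and quartiles of 3 and 23 over all RefSeq promoters in the table. The window of 300 bases that adds the 50 bases after the start was searched on both strands for the RUNX core motifs TGTGGT and TGCGGT, and for the SIX-binding MEF3 sequence TCAGGTTTC. The search covered 5 of the 8 genes (EYA3, EYA4, SIX2, SIX4 and DACH1), and none of the 5 windows held either kind of match. The other members of the group were not searched, so nothing is known here of their windows. A RUNX core match was present in 19.6% of the 35116 promoters in the table and a MEF3 match in 0.362%. These shares are over all promoters in the table, which were not selected as the 5 windows were, so they are not a matched comparison. No match says only that these letters were not in this window.

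Across the arrays, 36065 of the 41000 probes were kept, which means that the RNA of the same clone (either clone, or both) carried the scanner software's flag for signal well above background on both arrays. The share of the 43376 probe spots called well above background per RNA and hybridization ran from 77.3% to 93.9%. The ratios of the hybridizations differed by a median of 0.22 on the log2 scale over kept probes, and by 0.63 at the 95th percentile. Of the kept probes, 44 rose in cl-sh3 by 2-fold or more in each hybridization (0.122%) and 142 fell by as much in each (0.394%). This is called the 2-fold rule below. RUNX2, the gene the hairpin targets, had 3 probes. Probe A_32_P161762 fell under this rule, at log2 ratios of -2.04 and -1.30 in hybridizations 1 and 2. The other probes gave 0.17 and -0.13 (A_24_P69267), and -0.29 and -0.17 (A_32_P148058), neither of which met the 2-fold rule. Both were dimmer. Less local background, their control signals were 301 and 243, and 165 and 167.5, against 2103 and 2013 for A_32_P161762. The study reported lower RUNX2 mRNA and protein in cl-sh3 by RT-PCR and Western blot. With RUNX1, RUNX3 and the partner CBFB, the RUNX family had 8 kept probes and a median of 0.07. Of the 8, RUNX2 probe A_32_P161762 alone met the rule.

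Among the EYA, SIX-family and DACH probes, 6 were kept, which covered EYA4, SIX2, SIX4 and SIX5. Of these, 1 rose under the rule and 0 fell, against 0.122% and 0.394% of all kept probes. The probe that met the rule is the one for which the group was chosen, and nothing is read from that count. The median of the mean log2 ratios was -0.0013 over the 6 kept probes and 0.01 over all kept probes. The means of 4 of the 6 lay within 0.25 of 0, and the sign of each of these 4 differed between the hybridizations. The remaining pair, 1 EYA4 probe and 1 SIX4 probe, kept its direction in both hybridizations. Every one of the 9 probes had a single spot on the array, and no spot was saturated or carried an outlier flag.

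**Figure D1:**
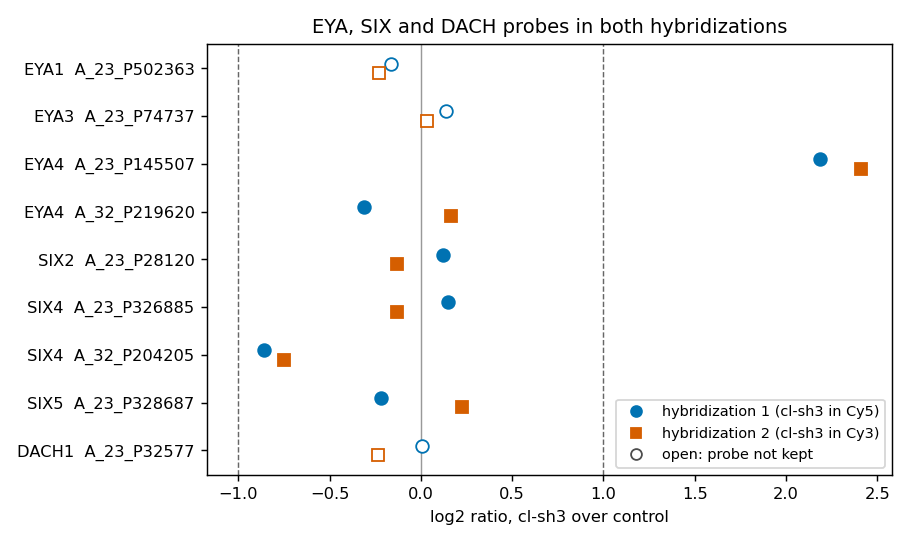
The log2 ratio of cl-sh3 over control (x axis) for each of the 9 EYA, SIX-family and DACH probes, with circles for hybridization 1, squares for hybridization 2, open symbols for probes not kept and dashed lines at 2-fold. EYA4 probe A_23_P145507 lies beyond 2-fold at 2.19 and 2.41, SIX4 probe A_32_P204205 lies at -0.86 and -0.75, and the others lie closer to 0.

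EYA4 is a transcriptional co-activator with phosphatase activity, known for roles in hearing and the heart. Probe A_23_P145507 gave a spot signal in hybridization 1 of 252 in control over a local background of 42, and of 2131 in cl-sh3 over 155.5. In hybridization 2 its signal was 454 in control over 163, and 1507 in cl-sh3 over 44.5. The cl-sh3 RNA was brighter than the control RNA in both dyes, and all 4 signals were flagged well above background. The log2 ratios were 2.19 and 2.41, a mean of 2.30, which is 4.92-fold higher in cl-sh3. The size of this fold rests on dim control signals. Less local background they were 210 and 291, against 124.75 and 200.05 in control for the blood cell marker PTPRC. The blood cell markers were not alike, since ITGAM gave 1736.5 and 2549.5 in control. In cl-sh3 this EYA4 probe gave 1975.5 and 1462.5 less local background, against 4378 and 2186 for ITGAM. Of all kept probes, 1 had a higher mean, that for ZBED2, a zinc finger protein (2.53 and 2.46).

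EYA4 probe A_32_P219620 carries the same accession and did not show this. Its signal in hybridization 1 was 2550.5 in control over a background of 44, and 3737.5 in cl-sh3 over 162. In hybridization 2 it was 3215.5 in control over 106, and 3336.5 in cl-sh3 over 39. The raw signal was higher in cl-sh3 in both hybridizations, but after loess normalization the log2 ratios were -0.31 and 0.16, a mean of -0.07, and they differed in sign. The EYA4 probes therefore lay 2.37 apart in their mean log2 ratio (2.50 in hybridization 1 and 2.25 in hybridization 2). Among 5695 accessions with at least 2 kept probes, the median distance between the highest and the lowest probe was 0.18 and the 95th percentile was 0.70. EYA4 had the widest distance of all of them, as 1 accession, EYA4 itself, reached 2.37. Which part of the transcript each probe matches was not analysed here.

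**Figure D2:**
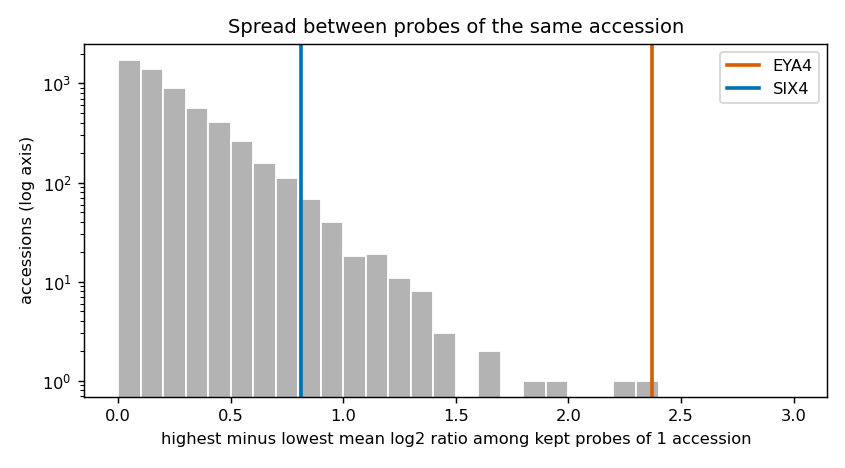
Number of accessions (y axis, log scale) by the distance between the highest and lowest mean log2 ratio of their kept probes (x axis), over 5695 accessions. The lines mark SIX4 at 0.81 and EYA4 at 2.37, at the far right end of the distribution.

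Probes of 1 accession also differed for other genes. Of the 17 accessions that had a risen probe under the rule and at least 2 kept probes, 0 had all their kept probes meet the rule, and in 3 of the 17, EYA4 among them, the lowest probe had a mean at or below 0. Of the 45 such accessions with a probe at least 2-fold lower, 5 had all their kept probes meet the rule, and in 2 the highest probe had a mean at or above 0.

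**Figure D3:**
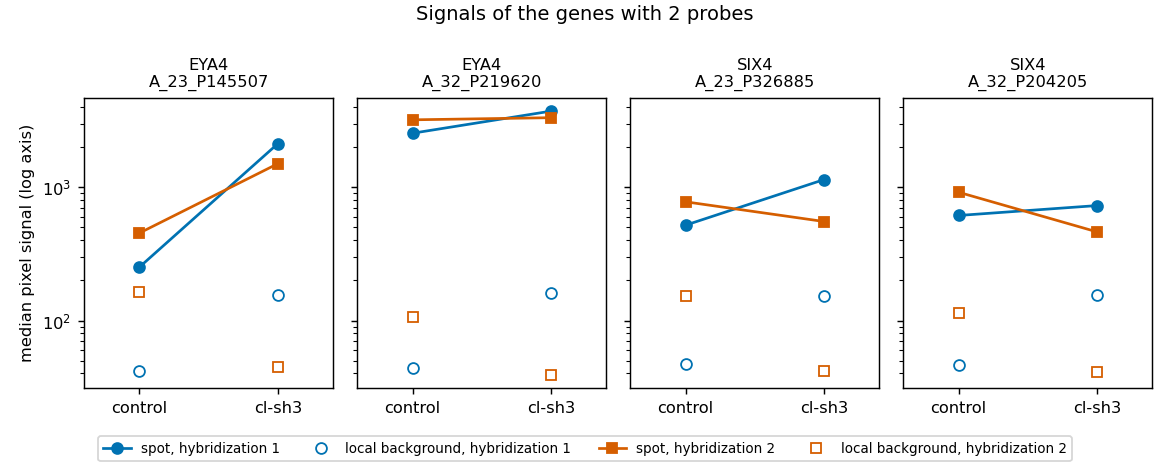
Median pixel signal (y axis, log scale) of control and cl-sh3 RNA for both EYA4 and both SIX4 probes, with filled symbols for the spot, open symbols for its local background, circles for hybridization 1 and squares for hybridization 2. EYA4 probe A_23_P145507 rises from 252 to 2131 and from 454 to 1507, whereas the lines of SIX4 probe A_23_P326885 cross, from 520 to 1144 and from 779 to 554.

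The genes beside EYA4 on chromosome 6 were read from the order in the RefSeq table, 3 on either side that had a kept probe. None of their 6 probes met the 2-fold rule. On the side before EYA4, the log2 ratios were 0.18 and -0.08 for RPS12, -0.07 and -0.17 for SLC18B1, and -0.12 and 0.36 for VNN2. On the side after it, TBPL1, a TBP-like transcription factor, was at -0.79 and -0.74, SLC2A12, a glucose transporter, at -0.55 and -0.48, and SGK1, a serum-induced kinase, at 0.28 and -0.0043. The means therefore ran from -0.77 to 0.14, with the nearest genes after EYA4 below 0 in both hybridizations.

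The probes with the pair of ratios most like that of the risen EYA4 probe were found by distance over the 2 hybridizations. They were PFDN6, a prefoldin subunit, at 1.99 and 2.29, ZBED2 as given above, the transcript CR616003 at 1.75 and 2.12, LMNB1, the nuclear lamina protein lamin B1, at 1.45 and 2.14, and DLST, a subunit of a mitochondrial dehydrogenase complex, at 1.87 and 1.64. This likeness rests on a single pair of RNAs.

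The other EYA genes were close to background. EYA1, known for roles in ear and kidney development, had signals in hybridization 1 of 138 in control over a background of 53, and 316 in cl-sh3 over 169. In hybridization 2 they were 300 in control over 161, and 124 in cl-sh3 over 43. The EYA3 signals in hybridization 1 were 114 in control over 48 and 321 in cl-sh3 over 172.5, and in hybridization 2 they were 315.5 in control over 185.5 and 140 in cl-sh3 over 45. For both genes the flag for signal well above background followed the dye, not the clone: it was set in Cy3 on both arrays and in Cy5 on neither. Local background was higher in Cy5, with medians over the probe spots of 166.5 and 164, than in Cy3, with medians of 46 and 43. The log2 ratios were -0.16 and -0.23 for EYA1, and 0.14 and 0.03 for EYA3, all smaller than the 95th percentile of the difference between hybridizations. Both probes stayed out of the counts above, since neither clone was well above background in both hybridizations.

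SIX2, a homeodomain factor known for the upkeep of nephron progenitors, was measured by probe A_23_P28120. Its signal in hybridization 1 was 798 in control over 46 and 1706 in cl-sh3 over 184, and in hybridization 2 it was 1417 in control over 203 and 1057 in cl-sh3 over 43. The brighter RNA was the one in Cy5 on both arrays, and the log2 ratios after normalization were 0.12 and -0.13, a mean of -0.0049. No difference between the clones larger than that between the hybridizations was seen.

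SIX4, a homeodomain factor that acts in muscle development, had probes that disagreed. Probe A_23_P326885 had signals in hybridization 1 of 520 in control over 47 and 1144 in cl-sh3 over 153.5, and in hybridization 2 of 779 in control over 152 and 554 in cl-sh3 over 42. Its log2 ratios were 0.15 and -0.13, a mean of 0.01. Probe A_32_P204205 had signals in hybridization 1 of 615 in control over 46 and 730 in cl-sh3 over 154.5, and in hybridization 2 of 919 in control over 114 and 463 in cl-sh3 over 41. Its log2 ratios were -0.86 and -0.75, a mean of -0.81, which is 1.75-fold lower in cl-sh3 and short of the 2-fold rule. Of all kept probes, 419 (1.16%) had both ratios at or below -0.75. The SIX4 probes lay 0.81 apart (1.01 in hybridization 1 and 0.62 in hybridization 2), a distance that 160 of the 5695 accessions (2.81%) reached.

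SIX5, a homeodomain factor next to the myotonic dystrophy kinase gene, had signals in hybridization 1 of 237 in control over 49 and 489 in cl-sh3 over 179, and in hybridization 2 of 374.5 in control over 149 and 260.5 in cl-sh3 over 39.5. The log2 ratios were -0.22 and 0.22, so they cancelled to a mean of 0.0022. DACH1, a co-repressor, had signals of 99 in control over 48 and 288 in cl-sh3 over 185 in hybridization 1, and of 307 in control over 190 and 110 in cl-sh3 over 46 in hybridization 2. DACH1 was flagged well above background only in cl-sh3 in hybridization 2, and its log2 ratios were 0.0044 and -0.24. It was not kept.

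The 9 probes were brighter than most negative control spots in each channel. Over the 153 negative controls, signal less local background had a 95th percentile between 41.7 and 94.2 per channel, and every EYA, SIX-family and DACH probe exceeded it in every channel. Blood cell markers such as PTPRC and CD3E, which an epithelial line should lack, had 7 kept probes and all 7 were flagged well above background in both RNAs, so that flag alone does not show that a gene is expressed.

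**Figure D4:**
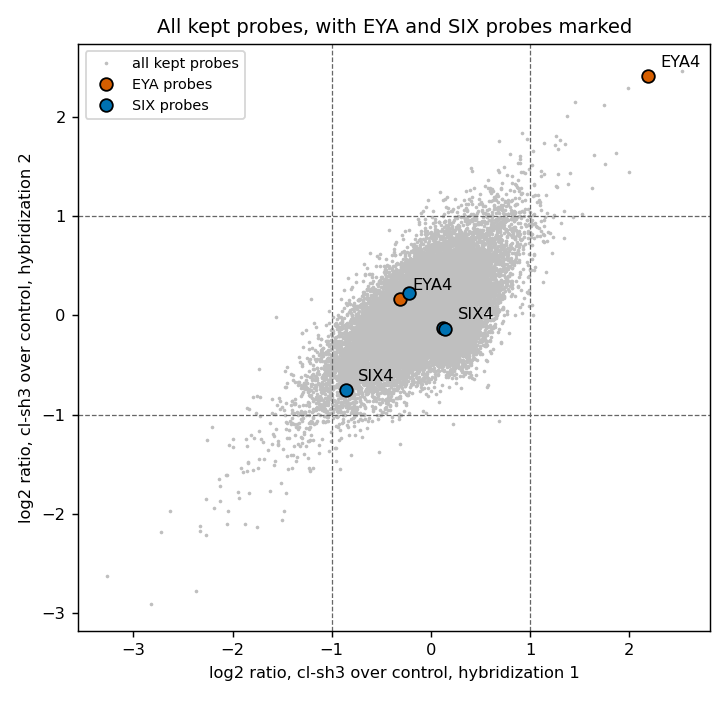
Log2 ratio of cl-sh3 over control in hybridization 1 (x axis) and hybridization 2 (y axis) for all kept probes in grey, with EYA probes in orange, SIX-family probes in blue and dashed lines at 2-fold. One EYA4 probe lies at the upper right at 2.19 and 2.41, and the other EYA4 and SIX-family probes lie inside the grey cloud.

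The paralogs SIX3, SIX6 and DACH2 had 3 kept probes, none of which met the 2-fold rule, with a median of 0.12. SIX6 was above 0 in both hybridizations (0.46 and 0.29), as was SIX3 (0.14 and 0.11), while the kept DACH2 probe A_32_P464135 gave 0.0034 and -0.19, and the other, A_23_P124232, was not kept (0.32 and -0.18). The PAX genes, which act upstream in the network, had 10 kept probes of 7 of the 9 genes listed. None met the rule, 5 were above 0 and 1 below 0 in both hybridizations, and the median was 0.07. Both ends of the range were probes of PAX9, with means of 0.20 and -0.16. Over all kept probes, 29.8% were above 0 in both hybridizations and 27.3% below.

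Cofactors and co-repressors that bind EYA, SIX-family or DACH proteins had 31 kept probes of 19 genes, none past 2-fold in both hybridizations. Of the 31, 7 were above 0 and 12 below 0 in both, against 29.8% and 27.3% of all kept probes. Their median was -0.06. The ends of the range were a probe of TLE5, a Groucho-related protein, at 0.47 and 0.94, and HDAC3, a histone deacetylase, at -0.57 and -0.55. Genes described as targets of SIX-family, EYA or DACH proteins had 21 kept probes of 14 of the 15 genes listed, with a median of 0.05. Of these probes, 1 was at least 2-fold higher and 0 were lower, against 0.122% and 0.394% of all kept probes. Nothing is read from a count of 1. The probe past the rule belonged to EZR, which codes for the membrane-cytoskeleton linker ezrin (A_24_P290481, 1.63 and 1.28), whereas its other probe, A_23_P19590, gave -0.20 and 0.30. The lowest target was CXCL8, the chemokine interleukin 8, at -1.05 and -0.84. Of the cell cycle and growth targets, CCND1, which codes for cyclin D1, had 3 probes with means of -0.41, 0.49 and 0.12, and the means of MYC were 0.02 and -0.02.

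Genes of the tissues in which the network is known showed no probe past 2-fold. In 1 or both hybridizations alone, the medians of the gene lists other than the paralogs and the epithelial markers moved by over 1.5 times from the mean of both, and those of the described targets and the RUNX family were below 0 in hybridization 1 (-0.08 and -0.02). The skeletal muscle list had 12 kept probes of 10 of 12 genes, with a median of 0.03 and means from -0.19 (MEF2C) to 0.51 (TNNC2). The kidney development list had 12 kept probes with a median of 0.06, from -0.59 for SALL1, a zinc finger factor, to 0.42 for LHX1, a LIM homeodomain factor. Markers of ovarian carcinoma and simple epithelium had 16 probes, all kept and all flagged well above background in both RNAs. None met the rule, but 14 of the 16 were above 0 in both hybridizations and the median was 0.44, against 29.8% and 0.01 over all kept probes. Among them KRT7, a keratin of simple epithelia, was at 0.49 and 1.17, and EPCAM, an epithelial adhesion protein, at 0.50 and 0.37. Probes of ERBB2, a receptor tyrosine kinase, disagreed, at -0.86 and -0.45 for A_23_P89249 and 0.26 and 0.18 for A_24_P284420. Other markers of this list lay near 0, with means of 0.02 for MSLN, 0.03 for MUC16, and -0.07 and 0.16 for the PAX8 probes. Blood cell markers had a median of 0.09, with means from -0.02 (PTPRC) to 0.19 (ITGAM). Their 7 kept probes were also flagged well above background in both RNAs, so that flag does not check the labelled cell type. Endothelial and mesenchymal markers had 8 kept probes and a median of 0.06, with means from -0.15 (PECAM1) to 0.20 (ACTA2). The higher median of the ovarian carcinoma and epithelium list did not hold for each of its markers. Its part in the EYA and SIX-family ratios was not tested.

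**Figure D5:**
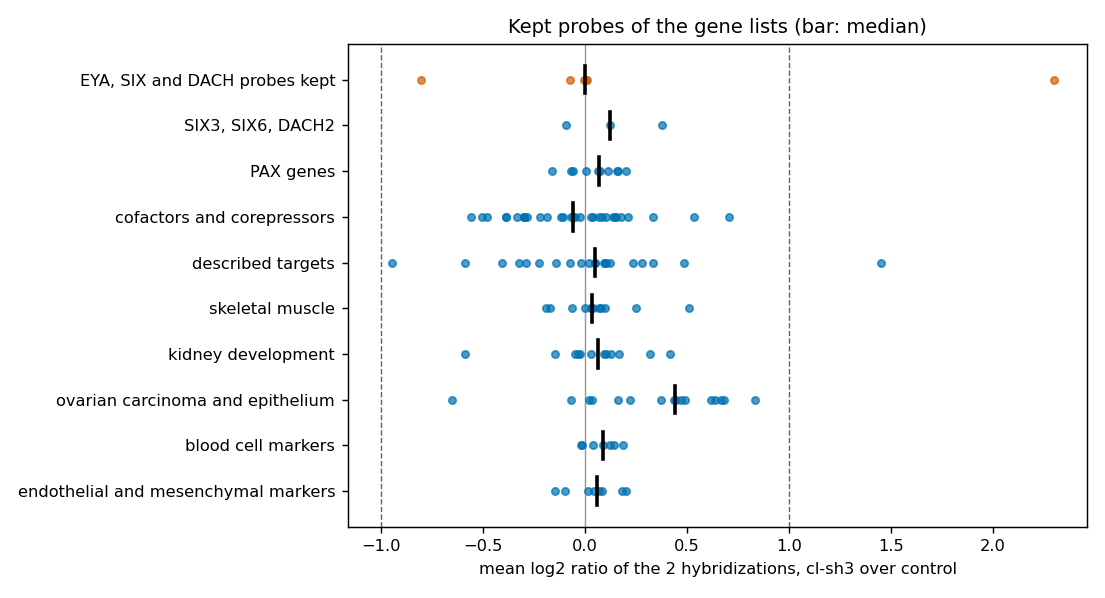
Mean log2 ratio of both hybridizations (x axis) for each kept probe of the EYA, SIX-family and DACH genes (orange) and of the gene lists (blue), with black bars at the medians and dashed lines at 2-fold. The EYA, SIX-family and DACH probes have a median of -0.0013 and 1 probe at 2.30, the ovarian carcinoma and epithelium list has a median of 0.44, and a probe of EZR lies at 1.45 among the described targets.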

How the data were processed

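RNA of the cl-sh3 and control clones was compared in 2 hybridizations with reversed dyes. The authors scanned the arrays with Agilent Feature Extraction (10.5.1.1 per the file headers, 8.5.1.1 per the submitters' processing notes). The deposited values are spot and local background intensity, not normalized, and that software's own log10 ratio (Cy5 over Cy3). A deposited table of log10 ratios equals the latter to within 0.00500.

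Intensities were corrected with normexp (offset 50) on median pixel values in limma 3.58.1 under R 4.3.3. Control spots were then removed and each array was normalized by loess, with flagged spots left out of the fit. After that the ratios of flagged spots were set to missing. Ratios were expressed as log2 of cl-sh3 over control. Median values took the place of a mean foreground because the deposited intensity columns hold medians. The software's flag on 50% or more of a probe's spots placed an RNA well above background, and a probe was kept if the RNA of the same clone, cl-sh3 or control, was so placed in both hybridizations. The rule for a change was at least 2-fold in the same direction in both hybridizations, as in the study. The rule was checked on simulated intensities. The planted changes were larger than 2-fold and left out dim spots, so the check does not cover dim probes or changes near 2-fold.

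Of 32890 accessions, 18024 were named, all through RefSeq (GRCh38.p14) except 1 RUNX2 accession named through the study's supplement. Probes of an accession were kept apart. Some results of the gene lists are not reported here. Array annotation was made on another build, so coordinates are given for RefSeq promoters alone. The genes, lists and naming rule were chosen with earlier results of these data known. The genes named are all members, RUNX2, the 5 probes nearest to the EYA4 probe, its neighbours, and list members that met the rule or lay at the ends of a list. EPCAM, MSLN, MUC16, PAX8, CCND1, MYC, CXCL8 and the second probes of EZR and ERBB2 were named after their values were seen. With 1 replicate there is no test, and the number of arrays limits the precision. Alternatives were another background correction, normalization, filter and source of the ratio, and each hybridization alone.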

Additional observations from a re-analysis of the deposited data

How the results depend on the processing

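EYA4 probe A_23_P145507, which was chosen for its rise, met the 2-fold rule under all 11 alternatives. Several of these could not have failed. Normalization between arrays and both changes of the filter left its ratios as they were, and each single hybridization reused a ratio already past 2-fold. The deposited table nearly repeats the software's ratio. Over the 7 alternatives in background correction, normalization, flagging or source of the ratio, its means ran from 2.06 to 2.86. SIX4 probe A_32_P204205 stayed between -0.92 and -0.69. The means of the SIX2 probe, of SIX4 probe A_23_P326885, of EYA4 probe A_32_P219620 and of the EYA3 probe changed sign among these 7, and all stayed between -0.07 and 0.13. EYA1 reached -0.72 with the software's ratio. Over all kept probes, the count at least 2-fold higher went from 44 to 77 with median centring, to 103 with the software's ratio, to 103 with the deposited table and to 93 when the mean of both hybridizations had to pass. The count at least 2-fold lower went from 142 to 253, 251 and 250 under the last 3 of these and was 124 with median centring. With a single hybridization the counts ran from 88 to 219 higher and from 196 to 506 lower, and the median of the EYA and SIX-family probes ran from -0.0487 to 0.0161. The cause of these shifts was not tested. No paired analysis was possible because the hybridizations are of 1 pair of RNAs and no test was made. List medians near 0 also moved. In hybridizations 1 and 2 alone they were -0.08 and 0.08 for the described targets, -0.02 and 0.07 for the RUNX family, 0.08 and 0.02 for kidney development, 0.08 and 0.0067 for skeletal muscle, 0.06 and 0.02 for blood cell markers, 0.02 and 0.07 for endothelial and mesenchymal markers, 0.02 and 0.12 for PAX genes, -0.02 and -0.08 for cofactors, 0.14 and 0.11 for the paralogs, and 0.30 and 0.43 for the epithelial markers. Under the other alternatives the median of the cofactors ran from -0.11 to -0.0091. Lists with a median above 0 as reported that fell below 0 reached -0.03 (described targets), -0.0076 (endothelial and mesenchymal markers) and -0.0033 (kidney development). Neither clone's RNA carried the flag for signal well above background on both arrays for EYA1, EYA3 and DACH1, which limits their ratios.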
